A study of Homo sapiens with 10 samples.

Results

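TBP, HPRT1, PPIA, YWHAZ, YWHAE, POLR2A, IPO8 and TUBB are candidate reference genes, whose transcripts can serve as the denominator when another transcript is quantified. They were taken by gene symbol from the table of read counts, in which these 8 genes hold 8 of 22626 rows, and all 8 were among the 14936 rows that passed the filter on low counts. RNA was sequenced from ARPE-19, an established human cell line derived from the retinal pigment epithelium (RPE). The control group (MG, n = 5) was kept for 48 h in medium whose 5.5 mM D-glucose was joined by mannitol at 32 mM, a sugar alcohol that balances the osmotic load, and the high glucose (HG) group (n = 5) for the same time in medium with 37.5 mM D-glucose. Both groups were grown in the same serum-containing medium otherwise, and the labels name no genetic change in either. The study quantified the transporters TAUT (SLC6A6) and RFC (SLC19A1) by PCR relative to GAPDH, and TAUT also by immunoblot. Its immunoblots used GAPDH or β-actin (ACTB) as the loading control. The question addressed here is how the transcripts of the 8 genes stood beside those of GAPDH and ACTB in these libraries. Protein was not measured in them, and the PCR groups of the study also carried a control or PDZK1 construct.

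Quantitative PCR reports the ratio of a target to a transcript taken to be steady, and a shift of the denominator passes into the ratio with the opposite sign. Reference genes are therefore drawn from unrelated cell functions, so that a treatment is unlikely to move all of them together. GAPDH is itself an enzyme of glycolysis, and ACTB is a main component of the actin cytoskeleton.

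Between 32448991 and 45864176 reads were counted per library. Each of the 20 pairs of libraries within a group differed beyond counting error (chi-square of 13.3 to 75.4 per gene), and since the labels do not say whether the libraries came from separate cultures, p-values measure the spread between these libraries, which may be technical. The control libraries are named MG_1 to MG_5 by their replicate number and the HG libraries HG_1 to HG_5 by the deposited column, of which only the group could be taken from the labels. HG_1 and MG_2 stood apart from the other 8 libraries: their counts rose with the GC content of a gene by 0.184 and 0.166 on the log2 scale per 10 percentage points of GC, against slopes between -0.091 and -0.0041 in the others, and the values of the 8 genes, the counts of genes called and the main ratios are given with and without them. Among 12 markers of the RPE, MITF had between 1691 and 2599 counts per library, OTX2 between 2902 and 4199 and RLBP1 between 245 and 572. RPE65, the isomerase of the visual cycle, had between 0 and 6 counts, TYR 0 to 34, DCT 0 to 17, and TTR was at 0 in every library, which allows up to 0.0654 to 0.0925 CPM (counts set against the scaled library size) by counting error alone. Of the 8 RPE markers tested, PMEL was called lower in HG by edgeR (log2 fold change -0.715, adjusted p = 0.00854), where 7.8% of all rows tested were called lower, while 5 of the 8 were lower by unadjusted p and 3 in DESeq2. Without HG_1 and MG_2, 5 of the 8 (PMEL, BEST1, MITF, OTX2 and RLBP1) were called lower, and 13.8% of all rows. RLBP1 (-0.320, adjusted p = 0.133), MITF (-0.201, adjusted p = 0.102), RDH5 (-0.189, adjusted p = 0.354), SERPINF1 (-0.122, adjusted p = 0.825) and OTX2 (-0.115, adjusted p = 0.0814) also had negative values, LRAT was at 0.027 (adjusted p = 0.957), and BEST1 (-4.97, adjusted p = 0.067) ranged from 24 to 18223 counts. Of 3 genes of the epithelial and mesenchymal cytoskeleton, the keratins KRT8 (-0.622, adjusted p = 0.00159) and KRT18 (-0.684, adjusted p = 0.00142) were lower, and vimentin (VIM) was at 0.112 (adjusted p = 0.168), under 0.05 by unadjusted p, and it was called higher without HG_1 and MG_2. The part of such changes in the levels of the reference genes was not tested.

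In GRCh38, by the annotation GENCODE release 29, TBP is at chr6:170554302-170572870, TUBB at chr6:30720201-30725426, HPRT1 at chrX:134460153-134520513, PPIA at chr7:44796680-44824564, YWHAE at chr17:1344272-1400378, POLR2A at chr17:7484366-7514616 and IPO8 at chr12:30628988-30695986. GAPDH lies at chr12:6533927-6538374 and ACTB at chr7:5527147-5563784. Counts are sums over a whole gene, so that no exon or transcript could be told from another. TBP, HPRT1, YWHAE, POLR2A and IPO8 share no stretch of 100 bases with a transcript of any other gene. In contrast, 12% of the 100-base windows of the longest PPIA transcript, 4.04% of those of YWHAZ, 18.7% of those of TUBB and 12.9% of those of GAPDH occur in another annotated transcript as well, among them 6 PPIA pseudogenes and antisense transcripts at TUBB and GAPDH. None of these partners has a row of its own in the table, and their part in the counts was not tested. Strand was not stated for the counting, so reads from the exons that TUBB and GAPDH share with these antisense transcripts could not be told apart. Genes are annotated on the opposite strand within ACTB and YWHAE as well, but share no such window with their transcripts.

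Promoter sequences were taken from RefSeq (GRCh38.p14, 250 bases before to 50 bases after the start). They were matched for TBP, HPRT1, PPIA, YWHAE, POLR2A, IPO8, TUBB and GAPDH. No promoter of YWHAZ or ACTB was examined, and the statements on promoters do not cover these genes. The median promoter of the table had 58.7% GC and 14 CpG dinucleotides, and each matched promoter of the 8 genes had at least 59.0% GC and 21 CpG. TBP encodes the TATA-binding protein, and the letters TATAAA, searched on the strand of the gene with their first base 40 to 20 bases before the start, were found in PPIA only among the matched genes, 31 bases before the start. They occur in 2.3% of all 35116 promoters of the table. GGGCGG on either strand in the 250 bases before the start occurs in 42.6% of all promoters, and 4 copies were found for HPRT1, 4 for PPIA, 2 for POLR2A, 2 for GAPDH, 1 for TBP, 1 for YWHAE and 0 for IPO8, while the 2 promoters listed for TUBB held 1 and 5. The 60 bases before the start of PPIA (chr7:44796621-44796680, plus strand), POLR2A (chr17:7484306-7484365, plus strand) and HPRT1 (chrX:134460105-134460164, plus strand) are shown to compare the member that holds TATAAA, in capitals, with others that do not.
PPIA: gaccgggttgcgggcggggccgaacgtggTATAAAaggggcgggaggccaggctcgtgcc
POLR2A: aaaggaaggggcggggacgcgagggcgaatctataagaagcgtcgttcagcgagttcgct
HPRT1: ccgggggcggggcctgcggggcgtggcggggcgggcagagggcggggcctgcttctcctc

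Per length, the levels of the 8 genes spanned a 122-fold range. PPIA was the most abundant, with a mean of 979 FPKM (fragments per kilobase of transcript, scaled to library size, the authors' length-divided unit), followed by YWHAZ (487), YWHAE (119), TUBB (60.4), HPRT1 (31.9), POLR2A (13.4), IPO8 (10.8) and TBP (8.01). IPO8, between 7.63 and 13.1 FPKM over the 10 libraries, overlapped both POLR2A (11.2 to 14.7) and TBP (7.32 to 8.57), and the other neighbours in this order did not overlap. GAPDH and ACTB, at means of 3849 and 3186 FPKM, lay above all 8.

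**Figure D1:**
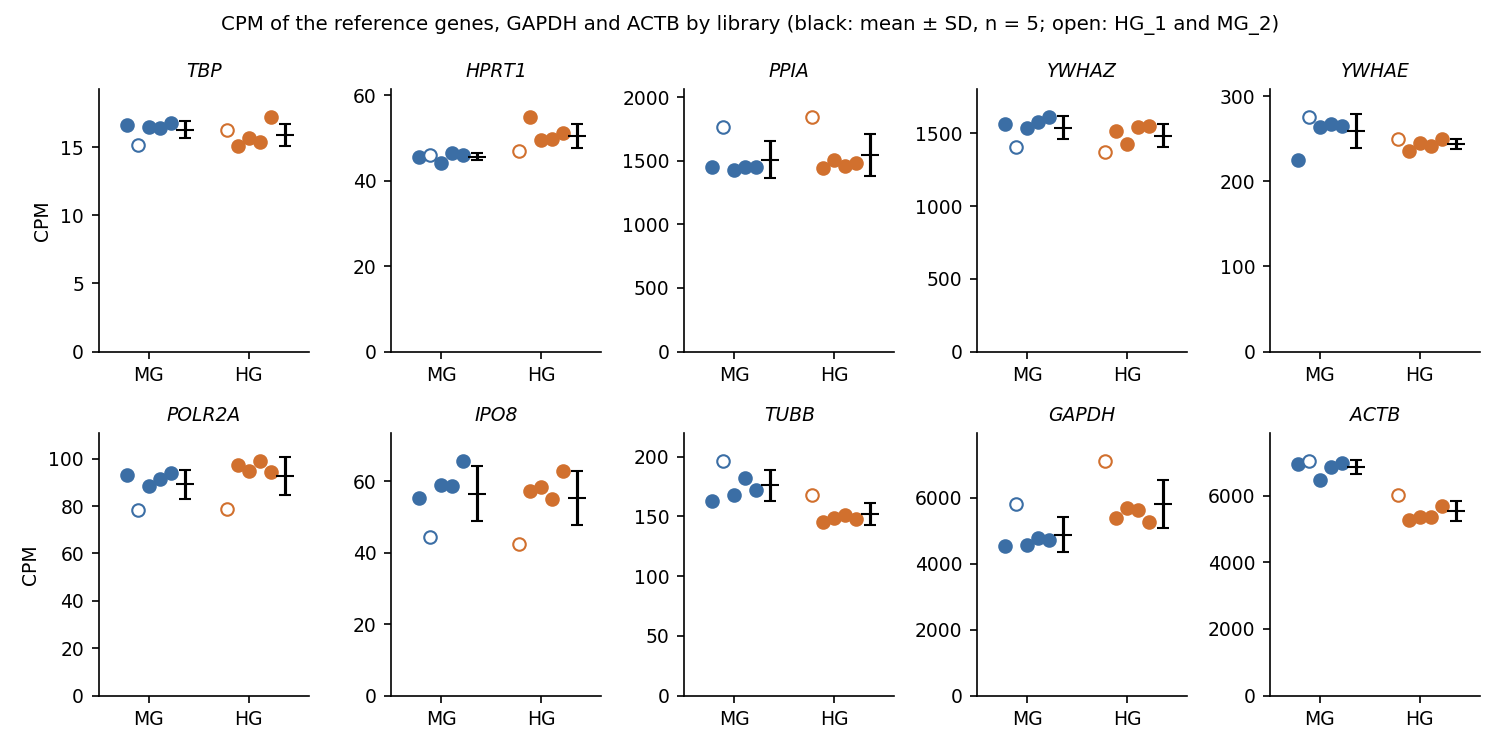
CPM (y axes, from 0) of the 8 reference genes, GAPDH and ACTB in each of the 5 MG and 5 HG libraries, with the mean ± SD in black and HG_1 and MG_2 as open circles. The groups overlap for 7 of the 8 reference genes and for GAPDH, while every HG value of ACTB lies below every MG value; the open circles lie apart in PPIA, POLR2A, IPO8 and GAPDH.

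Of the 8 genes, TUBB was called lower in HG and none was called higher by the quasi-likelihood test of edgeR, with p adjusted by Benjamini-Hochberg over all rows tested (adjusted p under 0.05), the threshold for every call below. At this threshold 15.4% of all rows were called, 7.62% as higher and 7.8% as lower, so that the share of the members, 12.5%, was near the background. Without HG_1 and MG_2, HPRT1 was called higher and TUBB lower, 25% of the members, against 27.1% of all rows. By unadjusted p, HPRT1 (higher) and TUBB (lower) were under 0.05, and DESeq2 called the same 2 genes. In bulk RNA, fewer cells that express a gene and less of its RNA per cell cannot be told apart. The groups did not overlap for 1 of the 8, HPRT1, against 13.6% of all rows. The median absolute log2 fold change of the 8 genes was 0.056 and that of all rows 0.15, and the median SD of log2 CPM over the 10 libraries was 0.106 for the 8 genes and 0.197 for all rows. The SD was below the median of all rows for 7 of the 8, the exception being IPO8. All rows include many with fewer counts than any of the 8, where counting error is larger, so this background is not matched for level. Among 4342 rows with a symbol and a mean of at least 50 CPM, YWHAZ ranked 581 by SD, YWHAE 839, POLR2A 1455, PPIA 1814, TUBB 2064 and IPO8 3355.

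TBP, a subunit of the general transcription factor TFIID, had 16.6, 15.2, 16.5, 16.4 and 16.8 CPM in MG_1 to MG_5 and 16.3, 15.1, 15.7, 15.4 and 17.2 CPM in HG_1 to HG_5. The highest and the lowest value of TBP both fell in HG, and the groups overlapped. The mean was 16.3 ± 0.615 CPM in MG and 15.9 ± 0.816 in HG (SD, n = 5), a change of -2.24% (95% interval -10.8% to 7.15%, log2 fold change -0.033 ± 0.06 SE, adjusted p = 0.786), and without HG_1 and MG_2 the log2 fold change was -0.063 (adjusted p = 0.486). TBP had between 505 and 746 counts per library, for which counting alone gives a coefficient of variation of 4.01%, and the observed coefficient over the 10 libraries was 4.4%. At this depth the spread of TBP was thus hardly above its counting error, and a smaller one could not have been seen.

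POLR2A, the largest subunit of RNA polymerase II, had 93.0, 78.5, 88.6, 91.5 and 93.9 CPM in MG_1 to MG_5 and 78.7, 97.3, 94.8, 98.8 and 94.4 CPM in HG_1 to HG_5. The lowest value in each group was in MG_2 and HG_1, and the other 4 HG values lay above the other 4 MG values. The change was 4.15% (95% interval -6.7% to 16.3%, adjusted p = 0.664), and without HG_1 and MG_2 the log2 fold change went from 0.059 to 0.071 (adjusted p = 0.127). Over the 10 libraries POLR2A varied by 7.8%, and by 3.37% over the other 8.

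HPRT1, the purine salvage enzyme that returns hypoxanthine and guanine to nucleotides, had 45.5, 45.9, 44.1, 46.5 and 46 CPM in MG_1 to MG_5 and 47.0, 54.8, 49.5, 49.8 and 51.1 CPM in HG_1 to HG_5. All 5 HG values were above all 5 MG values, with a gap of less than 1 CPM between HG_1 and MG_4. The control group of HPRT1 had the lowest coefficient of variation of the 8 genes in MG, 1.94%, where counting alone gives 2.32%. Its mean was 45.6 ± 0.886 CPM, and HG was at 50.4 ± 2.88 (SD, n = 5). The change of 10.6% (95% interval 2.59% to 19.2%, log2 fold change 0.145 ± 0.049 SE) had an adjusted p of 0.072. HPRT1 passed the threshold without HG_1 and MG_2 (0.173, adjusted p = 0.0141), without HG_1 alone (0.173, adjusted p = 0.0211) and in DESeq2 (0.144, adjusted p = 0.0369), while removal of the trend on GC content and length in each library gave 0.056 (adjusted p = 0.345).

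PPIA, which encodes cyclophilin A, a cytosolic prolyl isomerase, had 1448, 1764, 1426, 1453 and 1448 CPM in MG_1 to MG_5 and 1841, 1442, 1502, 1462 and 1485 CPM in HG_1 to HG_5. MG_2 and HG_1 were the highest of their groups, and the remaining 8 libraries lay between 1426 and 1502 CPM. Over all 10 libraries PPIA varied by 9.67%, and over these 8 by 1.66%, the lowest of the 10 genes compared. These 8 leave out the libraries in which PPIA was highest. With the trend on GC content and length removed in all 10, its SD of log2 CPM was 0.124, against 0.131 before. Its change was 2.54% (95% interval -9.6% to 16.3%, adjusted p = 0.83), and its log2 fold change of 0.036 became 0.029 without HG_1 and MG_2 (adjusted p = 0.411) and -0.031 without HG_1 alone (adjusted p = 0.79).

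PPIA also differed between the deposited tables. In FPKM it was at 1010, 1187, 649, 763 and 1022 in MG_1 to MG_5 and at 1289, 1040, 1055, 1036 and 741 in HG_1 to HG_5. The low FPKM values of MG_3, MG_4 and HG_5 had no counterpart in CPM, where these libraries were at 1426, 1453 and 1485. The coefficient of variation of PPIA was thus 20.6% in FPKM, the highest of the 8 genes, and the cause of the difference between the tables was not tested.

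**Figure D2:**
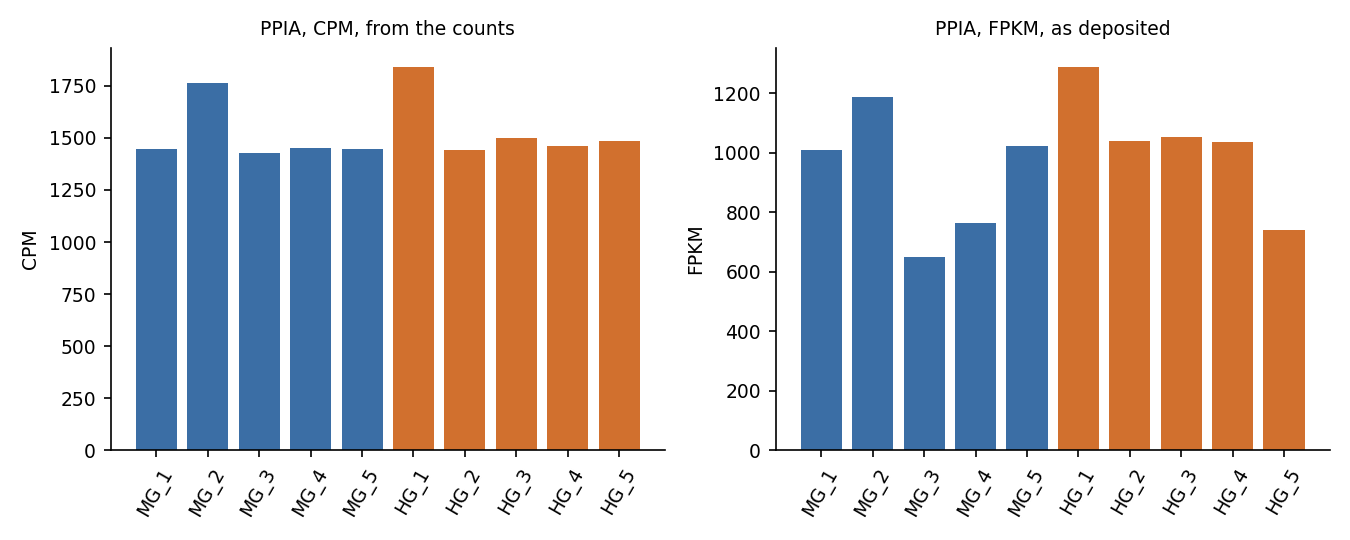
PPIA in each library as CPM computed from the counts (left) and as the deposited FPKM (right), MG in blue and HG in orange, with both axes from 0. HG_1 and MG_2 are the highest bars in both panels, and MG_3, MG_4 and HG_5 are low in FPKM only (649, 763 and 741).

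YWHAZ (chr8:100916525-100953388, GRCh38) and YWHAE encode 14-3-3ζ and 14-3-3ε, adaptor proteins that bind phosphorylated partners. 14-3-3ε is also the protein that the study examined as a partner of PDZK1, so that YWHAE is a transcript under study as well as a candidate reference. YWHAZ had 1563, 1405, 1534, 1581 and 1610 CPM in MG_1 to MG_5 and 1374, 1518, 1427, 1544 and 1552 CPM in HG_1 to HG_5, and its groups overlapped, with the lowest values again in MG_2 and HG_1. Its change was -3.61% (95% interval -10.9% to 4.32%, adjusted p = 0.567), and its log2 fold change of -0.053 became -0.057 without HG_1 and MG_2 (adjusted p = 0.247). YWHAE had 225, 275, 264, 267 and 265 CPM in MG_1 to MG_5 and 250, 236, 245, 241 and 250 CPM in HG_1 to HG_5. MG_1 was below every HG library and the other 4 MG libraries were above all of them. The change of YWHAE was -5.66% (95% interval -13.2% to 2.53%, log2 fold change -0.084 ± 0.0544 SE, adjusted p = 0.359), and without MG_1 it was -0.131 on the log2 scale and passed the threshold (adjusted p = 0.0461), while without HG_1 and MG_2 it was -0.069 (adjusted p = 0.4).

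IPO8, an import receptor that carries proteins into the nucleus, had 55.4, 44.4, 58.9, 58.8 and 65.6 CPM in MG_1 to MG_5 and 42.6, 57.3, 58.5, 55.2 and 62.8 CPM in HG_1 to HG_5. MG_2 and HG_1 were again the lowest, and the ranges of the groups nearly coincided. IPO8 had the widest spread of the 8 genes, 13.1% over the 10 libraries, where counting alone gives 2.15%, and 6.03% without HG_1 and MG_2. With the trend on GC content and length removed, the SD of log2 CPM of IPO8 went from 0.201 to 0.114, below those of POLR2A (0.149), PPIA (0.124) and TUBB (0.123). The change was -2.38% with the widest interval of the 8 (95% interval -18.5% to 17.0%, adjusted p = 0.891), and it was above 0 without HG_1 (log2 fold change 0.049, adjusted p = 0.78) or MG_5 (0.024, adjusted p = 0.936), and -0.030 without both HG_1 and MG_2 (adjusted p = 0.763).

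TUBB, a β-tubulin of the microtubules, had 163, 196, 168, 182 and 172 CPM in MG_1 to MG_5 and 168, 145, 149, 151 and 148 CPM in HG_1 to HG_5. The groups overlapped only through HG_1, which lay above MG_1, and the other 4 HG libraries were below every MG library. The mean fell from 176 ± 13 to 152 ± 8.99 CPM (SD, n = 5), a change of -13.6% (95% interval -21.2% to -5.29%, log2 fold change -0.211 ± 0.06 SE, adjusted p = 0.0373). The direction was the same in all 18 alternative fits, but the call was lost when HG_2, HG_3, HG_4, HG_5, MG_2, MG_4 or MG_5 was left out (7 of 10 libraries, log2 fold change -0.219 to -0.169, adjusted p between 0.0546 and 0.0925). Without both HG_1 and MG_2 the log2 fold change was -0.207 (adjusted p = 0.00333).

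GAPDH had 4520, 5800, 4564, 4772 and 4725 CPM in MG_1 to MG_5 and 7095, 5396, 5670, 5627 and 5252 CPM in HG_1 to HG_5. It was highest in HG_1 and MG_2, as PPIA was, and its groups overlapped only through MG_2. The change of 19.1% (95% interval 3.17% to 37.5%, log2 fold change 0.252 ± 0.094 SE) had an adjusted p of 0.0995. Without HG_1 and MG_2 it was 0.241 on the log2 scale with an adjusted p of 0.00118, and it also passed the threshold without MG_2 alone (0.323, adjusted p = 0.0227), in DESeq2 (0.251, adjusted p = 0.0474), with library size alone (0.263, adjusted p = 0.0475) and after removal of the GC and length trend (0.241, adjusted p = 0.000167). ACTB had 6961, 7024, 6476, 6844 and 6986 CPM in MG_1 to MG_5 and 6011, 5267, 5364, 5350 and 5679 CPM in HG_1 to HG_5, without overlap. ACTB fell by 19.3% (95% interval -24.9% to -13.3%, log2 fold change -0.309 ± 0.0467 SE, adjusted p = 0.00147), a call that held in all 18 alternative fits (-0.331 without HG_1 and MG_2). The interval of ACTB did not overlap that of TBP, YWHAZ, YWHAE, POLR2A, PPIA or HPRT1, and it overlapped those of TUBB and IPO8. That of GAPDH overlapped those of TBP, YWHAZ, POLR2A, PPIA, HPRT1 and IPO8, but not those of YWHAE and TUBB.

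**Figure D3:**
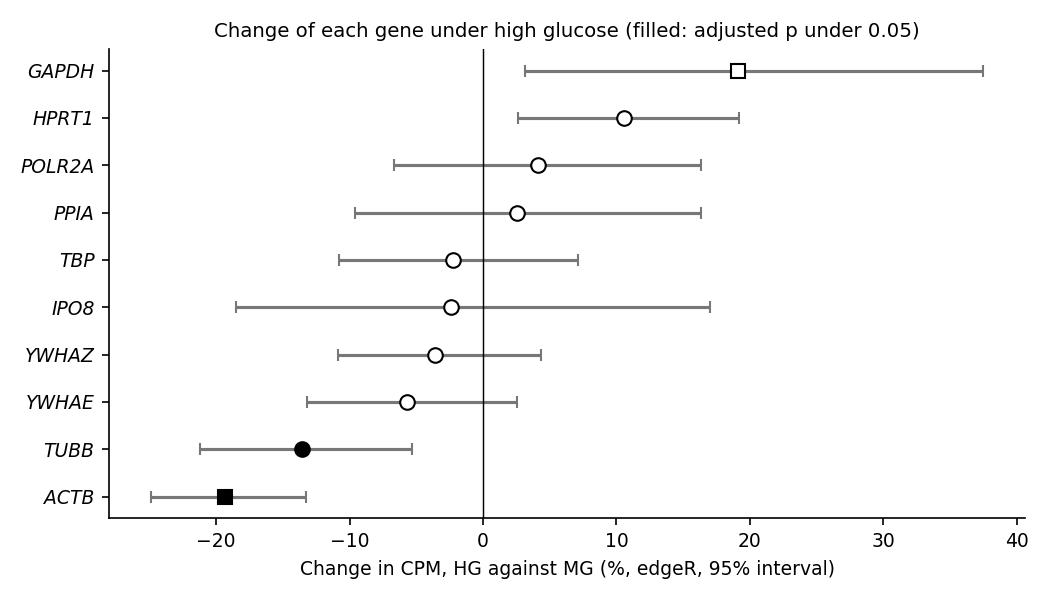
Change in CPM from MG to HG in percent, with its 95% interval from edgeR, for the 8 reference genes (circles), GAPDH and ACTB (squares), with filled symbols for an adjusted p under 0.05. TUBB (-13.6%) and ACTB (-19.3%) are filled, and the intervals of TBP, YWHAZ, YWHAE, POLR2A, PPIA and IPO8 include 0.

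The steadiness of the genes relative to each other was described with the measure M of the geNorm procedure, the mean SD of the log2 ratio of a gene to each of the other 9, which depends on no scaling between libraries. TBP had the lowest M (0.148), followed by YWHAZ (0.152), YWHAE (0.156), HPRT1 (0.175), POLR2A (0.182), TUBB (0.185), PPIA (0.19), ACTB (0.21), IPO8 (0.239) and GAPDH (0.252). In these counts GAPDH thus had a higher M than all 8 genes, and ACTB a higher one than all but IPO8. When the gene with the highest M was removed step by step, GAPDH left first, then IPO8, ACTB, PPIA, TUBB, YWHAE, HPRT1 and POLR2A. TBP and YWHAZ remained, and their log2 ratio had an SD of 0.0755 over the 10 libraries, the lowest of the 45 pairs. YWHAZ with POLR2A (0.083) and TUBB with ACTB (0.0883) came next, while IPO8 with GAPDH had the highest SD (0.374).

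Without HG_1 and MG_2 every M was lower and the order changed. PPIA then had the lowest M (0.101), before YWHAZ (0.103), TBP (0.108), POLR2A (0.112), IPO8 (0.115), YWHAE (0.12), TUBB (0.14) and HPRT1 (0.147). GAPDH (0.174) and ACTB (0.194) had the highest values, above all 8 genes. In FPKM, TBP had the lowest M (0.18), YWHAZ was the sixth (0.215), and PPIA (0.373) and IPO8 (0.284) had higher values than GAPDH (0.274). With the GC and length trend removed, YWHAZ (0.134) and TBP (0.136) had the lowest M, IPO8 was at 0.153, PPIA at 0.179 and POLR2A at 0.197, and GAPDH (0.198) and ACTB (0.205) had the highest. Low M also describes genes that move together, and TUBB and ACTB, which both fell in HG, formed the third steadiest pair.

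**Figure D4:**
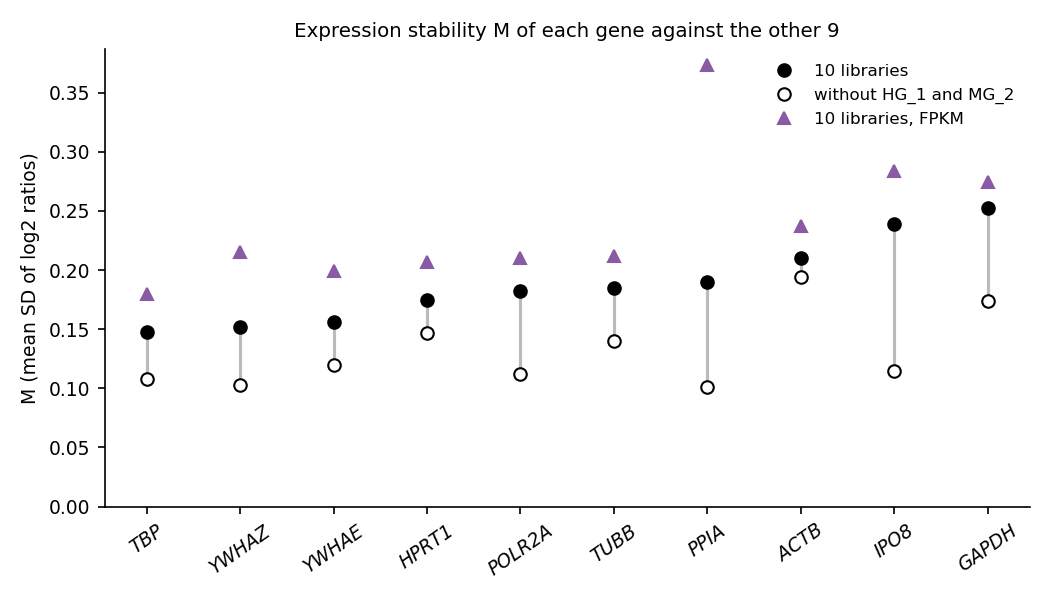
Expression stability M (mean SD of log2 ratios, y axis from 0) of the 8 reference genes, GAPDH and ACTB, from counts of all 10 libraries (filled circles), of the 8 libraries without HG_1 and MG_2 (open circles) and from FPKM (triangles). M of PPIA runs from 0.101 without HG_1 and MG_2 to 0.373 in FPKM, and TBP stays between 0.108 and 0.18.

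A ratio of counts within a library, like a PCR ratio, does not depend on the scaling between libraries, but count ratios were not compared with PCR here. GAPDH and ACTB were divided by each of the 8 genes. The groups were compared with a two-sided exact permutation test over every arrangement of 5 against 5 libraries, for which the smallest possible p is 0.00794. In all, 52 ratios were tested, and p-values adjusted over these 52 by the Benjamini-Hochberg procedure are given as well. GAPDH was higher in HG over each of the 8, by 0.107 (over HPRT1) to 0.460 (over TUBB) on the log2 scale, and 3 of the 8 shifts had an exact p under 0.05. For every PPIA count there were between 3.12 and 3.29 GAPDH counts in MG and between 3.54 and 3.85 in HG, without overlap (log2 shift 0.215, exact permutation p = 0.00794, adjusted 0.0153). This ratio had the smallest spread of GAPDH over any of the 8, with an SD of 0.0319 in MG and 0.0505 in HG on the log2 scale, against 0.201 and 0.181 over TBP, for which the shift was 0.283 (exact permutation p = 0.0556, adjusted 0.0741). Over the geometric mean of the 8 genes GAPDH shifted by 0.272, or 20.8% (exact permutation p = 0.0397, adjusted 0.0543). That p lay above 0.05 in 9 of the 10 cases in which 1 library was left out (0.0635 to 0.0794, and 0.0159 without MG_2), where the smallest possible p is 0.0159. Without both HG_1 and MG_2 the shift was 0.259 (exact permutation p = 0.0286, the smallest that 4 against 4 libraries can give), and with the GC and length trend removed it was 0.290 (exact permutation p = 0.00794).

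ACTB was lower in HG over each of the 8 genes, with a log2 shift between -0.454 (over HPRT1) and -0.101 (over TUBB) and with an exact p under 0.05 for 6 of 8 and for 4 after adjustment. Over TBP there were between 393 and 462 ACTB counts in MG and between 331 and 370 in HG (log2 shift -0.277, exact permutation p = 0.00794, adjusted 0.0153). Over TUBB the ranges of 35.9 to 42.7 in MG and 35.5 to 38.2 in HG overlapped (-0.101, exact permutation p = 0.0714, adjusted 0.0906). Over the geometric mean of the 8 genes ACTB shifted by -0.288, or -18.1% (exact permutation p = 0.00794, adjusted 0.0153). The shift of GAPDH over the geometric mean was above 0 and that of ACTB below 0, of which that of ACTB passed after adjustment and that of GAPDH did not. The ratio of GAPDH to ACTB was 47.5% higher in HG (log2 shift 0.561, exact permutation p = 0.00794, adjusted 0.0153).

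The choice of denominator therefore changed the size of a ratio. SLC6A6, the taurine transporter, changed in HG by -34.7% over GAPDH (exact permutation p = 0.0159, adjusted 0.0285), by -21.2% over the geometric mean of the 8 genes (exact permutation p = 0.00794, adjusted 0.0153) and by -3.72% over ACTB (exact permutation p = 0.563, adjusted 0.575). Over single members its log2 shift was between -0.509 (HPRT1) and -0.156 (TUBB), and 7 of 8 had an exact p under 0.05, TUBB being the exception (exact permutation p = 0.27), and 6 of 8 after adjustment. SLC6A6 overlaps GRIP2 on the opposite strand, with 2.15% of the 100-base windows of its longest transcript in common. For every TBP count there were between 2.52 and 3.06 SLC6A6 counts in MG and between 1.91 and 2.34 in HG, without overlap.

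SLC19A1, the reduced folate carrier, changed by -32.8% over GAPDH (exact permutation p = 0.00794, adjusted 0.0153), by -18.9% over the geometric mean of the 8 (exact permutation p = 0.0397, adjusted 0.0543) and by -0.937% over ACTB (exact permutation p = 0.873, adjusted 0.873). Its shift over single members ran from -0.467 (HPRT1) to -0.115 (TUBB), with an exact p under 0.05 for 4 of 8 and for 2 after adjustment. Over the geometric mean, the p of SLC19A1 lay above 0.05 without HG_1 and MG_2 (log2 shift -0.277, exact permutation p = 0.0571), with the GC and length trend removed (-0.198, against -0.302 in the counts as deposited, exact permutation p = 0.0635), and when HG_2, HG_4, HG_5, MG_1, MG_2 or MG_5 was left out (exact permutation p = 0.0794 for each). SLC19A1 overlaps COL18A1 on the opposite strand, and its longest transcript shares no such window with COL18A1, while some shorter ones do. PDZK1, a scaffold protein and the main gene of the study, was lower over every denominator, with a log2 shift between -2.901 and -2.548 over the 8 genes, and the groups did not overlap for any of them (exact permutation p = 0.00794 for each). Of the 100-base windows of the longest PDZK1 transcript, 53.4% are shared with the pseudogene PDZK1P1, which has no row in the table.

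**Figure D5:**
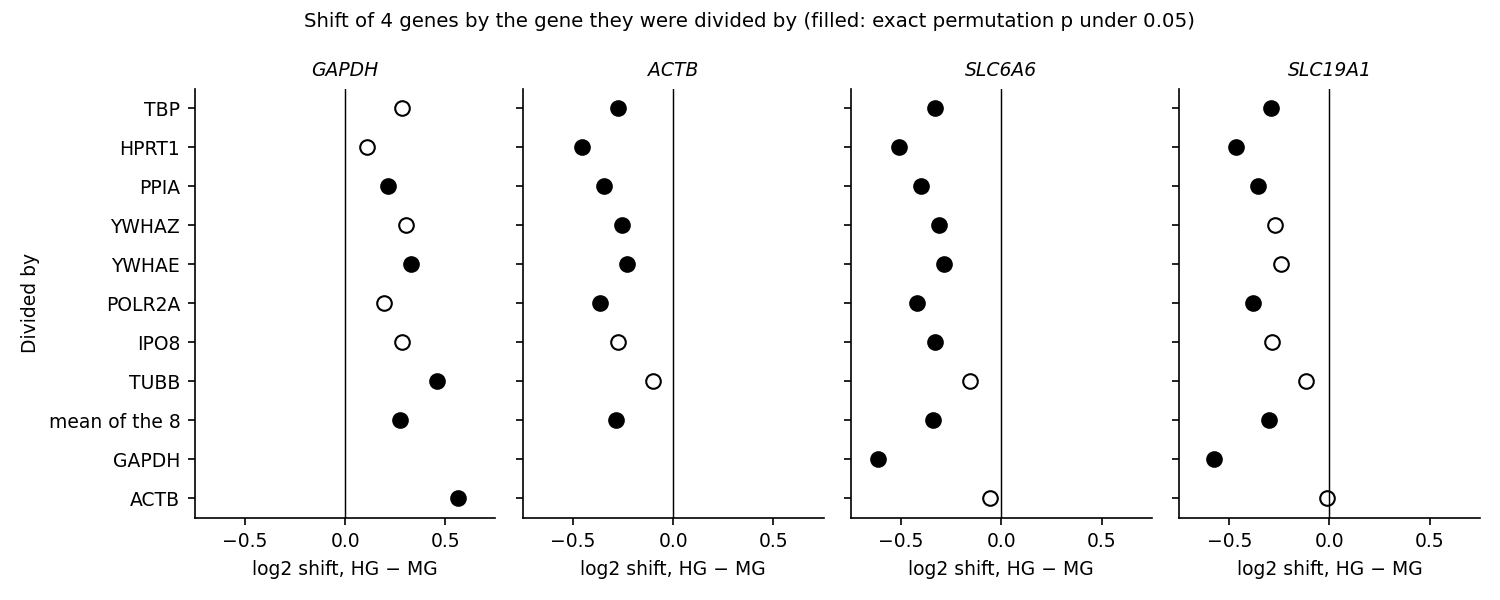
Log2 shift (HG minus MG, x axes) of the count of GAPDH, ACTB, SLC6A6 and SLC19A1 after division by the gene named on the y axis or by the geometric mean of the 8 reference genes, with filled circles for an exact permutation p under 0.05 (not adjusted). GAPDH lies to the right of 0 and ACTB to the left over all 8 genes, and SLC6A6 and SLC19A1 lie farthest to the left over GAPDH (-0.62 and -0.57) and nearest to 0 over ACTB (-0.055 and -0.014).

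Each member was also set beside its own gene family. Of 11 further tubulin genes tested, 6 were lower in HG (the same number by unadjusted p and in DESeq2, 5 in limma on log2(FPKM + 1)), and none was higher by any of these, a share of 54.5% lower against 7.8% of all rows: TUBB2A (log2 fold change -0.52), TUBB6 (-0.39), TUBB2B (-0.38), TUBA4A (-0.38), TUBA1A (-0.30) and the γ-tubulin TUBG1 (-0.26). The median of the 11 was -0.26, against 0.0013 for all rows. TUBB4B (0.011), TUBA1C (0.013) and TUBA1B (-0.064) did not pass, and TUBB3 was at 0.138 (adjusted p = 0.364). Counts of tubulin genes may be split between near-identical copies by the counting.

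None of the 5 further 14-3-3 genes tested was called by edgeR, while 2 were lower by unadjusted p and 1 was lower in DESeq2. YWHAB was at 0.112 on the log2 scale (adjusted p = 0.315), YWHAH at -0.108 (adjusted p = 0.113), YWHAQ at -0.093 (adjusted p = 0.162) and YWHAG at -0.089 (adjusted p = 0.608), and SFN, below 1 CPM in both groups, at -1.43 (adjusted p = 0.199). Of the 16 other TFIID subunits and TBP relatives, TAF9 was higher (0.56, adjusted p = 0.000274) and TAF11 lower (-0.22, adjusted p = 0.0308), and neither passed in limma on log2(FPKM + 1). The lowest value was that of TAF4 (-0.223, adjusted p = 0.167), and the share called, 12.5%, was near the 15.4% of all rows. Of the 11 other RNA polymerase II subunits, POLR2G (0.55, adjusted p = 0.000771) and POLR2K (0.30, adjusted p = 0.0386) were higher, and none was lower by unadjusted p or in DESeq2, a share of 18.2%. POLR2D was the lowest of them, at -0.049.

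Of 17 further importins and exportins, IPO9 was lower (-0.20, adjusted p = 0.00993), 5.88% of the list, and none was called higher (1 by unadjusted p, 0 in DESeq2), and XPO1 had the highest value at 0.184 (adjusted p = 0.407). Among 14 cyclophilins besides PPIA, 3 were higher (PPIL3, 0.40; PPIF, 0.29; PPIH, 0.24) and 2 lower (PPIL1, -0.38; PPIC, -0.24), so that 35.7% were called against 15.4% of all rows. Of 8 genes around HPRT1 in purine salvage and its substrate supply, PRPS1, which makes the phosphoribosyl donor that HPRT1 uses, was lower (log2 fold change -0.864, 139 ± 9.22 CPM in MG, 76.5 ± 7.52 in HG, SD, n = 5, adjusted p = 0.00007). PRPS2 was lower (-0.164, adjusted p = 0.0368) and ADK higher by 0.275 (adjusted p = 0.00442), so that 37.5% of this list was called. ADA had the highest value (0.328, adjusted p = 0.134).

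Beyond the 8 genes, 24 other genes in use as references were tested, of which 5 were higher in HG by edgeR (7 by unadjusted p, 6 in DESeq2), and none was lower by any of these. The share called was 20.8%, against 7.62% of all rows called higher and 15.4% called in either direction. The 5 were ALAS1 (0.66), TFRC (0.53), PGK1 (0.50), ATP5F1B (0.28) and B2M (0.25), and RPS18 had the lowest value (-0.53, adjusted p = 0.562) with the widest spread. Of 11 genes proposed as steady in RNA sequencing, RAB7A (0.33), GPI (0.32) and REEP5 (0.156) were higher and SNRPD3 (-0.138) lower, a share of 36.4% against 15.4% of all rows. The median SD of log2 CPM was 0.162 in the first list and 0.12 in the second, and 0.106 for the 8 genes.

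The counts in most of these lists changed without HG_1 and MG_2, a recount of the lists chosen after seeing the data. Without both libraries 27.1% of all rows were called, 13.3% as higher and 13.8% as lower, and no gene called in these family and reference lists was lost. Among the tubulins the same 6 genes were lower, again 54.5% of the list. YWHAB was called higher and YWHAH lower among 4 tested 14-3-3 genes, TAF6 and TAF10 were called lower beside TAF11, and POLR2C higher beside POLR2G and POLR2K. The importins and exportins KPNA4, TNPO3 and XPO1 were called higher, so that 23.5% of that list was called. PPIE was called higher and PPIB lower, for 50% of the cyclophilins, and DCK was called higher, for 50% of the purine salvage list. In the list of 24 other reference genes 8 were called higher (33.3%) and 0 lower, and in the list of 11 genes C1orf43 was called higher and VPS29 lower (54.5%).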

How the data were processed

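RNA-seq of 10 ARPE-19 libraries was analysed from 2 deposited tables. The authors deposited read counts, whole numbers per gene without normalization, and FPKM values, scaled by the authors to library size and transcript length. The submitters' processing notes name fastp 0.20.1, HISAT2 2.2.1 and GRCh38, and the counting program, annotation and strand setting are not given in the sources used here. From the counts, HG was compared with MG in R 4.3.3 with edgeR 4.0.16 (TMM, default filter on low counts, quasi-likelihood test, Benjamini-Hochberg adjustment over 14936 rows). CPM use the TMM-scaled library size, and log2 CPM a prior count of 2. Ratios of counts within a library were compared with exact permutation tests (scipy 1.17.1). Depth was between 32448991 and 45864176 counts per library. Intervals of 95% for fold changes come from the fit, and limits from counts of 0 cover counting error only.

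The members and the gene lists were chosen with earlier results of these data known. Named are the members, GAPDH, ACTB, SLC6A6, SLC19A1 and PDZK1, in each list the genes past the threshold and those with the largest and smallest fold change, and the 5 steadiest rows. A gene outside this rule was picked once its values were known. In simulated counts, edgeR called 112 of 200 changed genes among 14749 tested, with 3 false calls. This share does not give the power to call changes as small as those of the members, GAPDH and ACTB, which was not tested. Alternatives were DESeq2 1.42.0, RLE factors, library size alone, no filter, removal, library by library, of the trend on GC content and length (lowess, span 0.3), limma 3.58.1 on log2(FPKM + 1) and log2(FPKM + 0.1) and on rows whose mean FPKM reached 1, and libraries left out. Gene positions and shared 100-base windows come from GENCODE release 29, in which 20232 of the 20463 Ensembl identifiers were found. The 2163 rows named MSTRG entered the fit.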

Additional observations from a re-analysis of the deposited data

Results flagged for a closer look

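In 8 of the 26 groups of 5 values looked at (13 genes in MG and in HG), 1 library lay farther from the others than Dixon's 95% limit for 5 values allows, where chance gives about 1.3 (1 in 20). HG_1 held 4 of these values. PPIA reached 1841 CPM in HG_1 while the other HG libraries lay at 1442 to 1502, GAPDH at 7095 against 5252 to 5670, TUBB at 168 against 145 to 151, and POLR2A at 78.7 against 94.4 to 98.8. MG_2 held 3: PPIA reached 1764 CPM there while the other MG libraries lay at 1426 to 1453, GAPDH at 5800 against 4520 to 4772, and TBP at 15.2 against 16.4 to 16.8. The remaining value was YWHAE in MG_1, at 225 CPM against 264 to 275, and MG_1 did not stand apart in its GC trend (-0.040 on the log2 scale per 10 points of GC). HG_1 and MG_2 were the libraries with the positive GC trend. After that trend and the trend on length were removed, the SD of log2 CPM over the 10 libraries was 0.124 for PPIA (0.131 before), 0.149 for POLR2A (0.117), 0.131 for GAPDH (0.2), 0.123 for TUBB (0.142) and 0.0842 for TBP (0.0635). Without HG_1 and MG_2 it was 0.0239 for PPIA, 0.0488 for POLR2A, 0.135 for GAPDH, 0.12 for TUBB and 0.0643 for TBP.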

How the results depend on the processing

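ACTB, TUBB, YWHAZ, YWHAE and TBP kept a negative and HPRT1, POLR2A and GAPDH a positive log2 fold change in all 18 alternatives. The size moved more: over the 18, YWHAZ (-0.053) lay between -0.144 (in FPKM) and -0.023, POLR2A (0.059) between 0.018 and 0.116, TBP (-0.033) between -0.088 (trend removed) and -0.014, YWHAE (-0.084) between -0.137 (trend removed, adjusted p = 0.0527) and -0.061, and HPRT1 (0.145) between 0.056 and 0.173. PPIA (0.036) was at 0.168 in FPKM, at -0.014 with the GC and length trend removed and between -0.031 and 0.1 with 1 library left out, and IPO8 (-0.035) lay between -0.109 and 0.049. The number of the 8 genes called was 2 in DESeq2 and 2 without HG_1 and MG_2 (HPRT1 and TUBB in both), between 0 and 2 with 1 library left out, and 1 in the other 7 alternatives. Of 14936 rows, 2303 were called, against 3085 of 15539 in DESeq2, 4035 of 14899 without HG_1 and MG_2, and 1648 to 2993 with 1 library left out. With the trend removed 3781 of 13538 rows were called, and 2358 of the same 13538 with it kept. The cause was not tested. Over the geometric mean of the 8 genes, GAPDH shifted by 0.187 to 0.344 with 1 library left out (exact permutation p 0.0159 to 0.0794), by 0.259 without HG_1 and MG_2, by 0.290 with the trend removed and by 0.270 in FPKM (exact permutation p = 0.0286, 0.00794 and 0.0397), and SLC19A1 by -0.348 to -0.24 (exact permutation p 0.0317 to 0.0794), by -0.277 without HG_1 and MG_2, by -0.320 in FPKM and by -0.198 with the trend removed (exact permutation p = 0.0571, 0.00794 and 0.0635). With 4 libraries against 4 the smallest possible exact p is 0.0286. The shifts of ACTB, SLC6A6 and PDZK1 over that mean, and of the 3 targets over GAPDH, kept their direction and an exact p under 0.05 in each alternative run. Depth limits TBP, whose spread was near its counting error. No paired analysis was possible because the columns of the HG group carry no replicate number that matches the labels.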

Other observations

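Among 4342 rows with a symbol and a mean of at least 50 CPM, ranked by the SD of log2 CPM over the 10 libraries, the 5 steadiest were KHSRP (0.021), MAPKAP1 (0.026), STT3A (0.0279), BCL2L13 (0.0283) and HMGN1 (0.0287), none of them among the 8 reference genes. KHSRP, an RNA-binding splicing and decay factor, stayed between 254 and 266 CPM, and MAPKAP1, a subunit of mTOR complex 2, between 189 and 200 CPM. YWHAZ ranked 581, YWHAE 839, POLR2A 1455, PPIA 1814, TUBB 2064, ACTB 2840, GAPDH 3345 and IPO8 3355, while TBP and HPRT1 lay below 50 CPM in the mean. Without HG_1 and MG_2, PPIA ranked 11, POLR2A 463, YWHAZ 573, IPO8 1979, YWHAE 2140, TUBB 2920, GAPDH 3202 and ACTB 3714. BCL2L13 (0.0118) then had the lowest SD, KHSRP, STT3A and HMGN1 were no longer among the 5 steadiest, and EIF4A2, 1 of the 24 other reference genes tested, ranked 5 (0.0214). These rows were chosen by their spread in these libraries, so that their low values are a description and were not tested elsewhere.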
